A study of Mus musculus with 23 samples.

Results

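Subclones 28 and 24 are a pair of cell populations from Lewis lung carcinoma (LLC), a mouse tumour line that can be transplanted and that causes wasting in its hosts. Their comparison rests on 6 of the 23 arrays of the series, 3 for subclone 28 and 3 for subclone 24, and the other 17 arrays come from 6 further subclones. All 8 subclones were obtained from the parental line by limiting dilution, which makes each of them 1 clone. They were kept in DMEM with 10% FBS and antibiotics, and spent 24 h in a serum-free expression medium before total RNA was taken. Neither member of the pair carries a named allele, and neither received an agent. Arrays of 1 subclone are labelled as biological replicates, with no word on what was repeated, so the p-values below measure the spread between these arrays, and every difference is between 1 clone and another.

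The pair was chosen from the measured values. Subclones 28 and 24 had been seen to lie at opposite ends for several secreted factors linked to cachexia, with Lif, Il33 and Tmem45a as the genes that mark the pair. These genes, and the whole list of cachexia-related factors, are therefore described without a test. Other genes carry a log2 difference (subclone 28 minus subclone 24) with its standard error (SE) and a Benjamini-Hochberg adjusted p from limma over 18193 genes. Levels are log2(intensity + 16), so each fold given here refers to log2(intensity + 16) and is too small for dim genes. Levels under 5.32, which is log2(40), are called low, because the values carry no detection call.

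LIF, interleukin-6 and interleukin-11 are cytokines that signal through a shared receptor chain, gp130, and the transcription factor STAT3. In animals with tumours, members of this family act on muscle, fat and liver. Interleukin-33 is a nuclear cytokine of barrier and stromal cells that binds the receptor ST2 when it is released, and BMP2 is a ligand of the TGF-beta superfamily with effects on bone and fat cells. A tumour clone that makes more of such messages need not secrete more protein, which the arrays did not measure.

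Of 50 listed cachexia-related factors, 44 were measured. Subclone 28 exceeded subclone 24 by at least 1 log2 unit in 11 of them, and none was lower by that much. The count of 11 was 6 with a pseudocount of 64 and 8 with the mean over all probe sets of a gene, where Slit2 (0.77), Metrnl (0.41) and Tnfsf11 (0.90) stayed under 1. Over all genes, 2.83% had an absolute difference of that size. The median difference of the list was 0.08, against 0.01 over all genes, and 14 of the 44 were low in both subclones. The threshold of 1 fell between Metrnl (1.05) inside and Vegfa (0.995) and Lcn2 (0.99) outside.

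Lif read 9.78, 9.79 and 9.74 in the arrays of subclone 28 and 6.57, 6.83 and 6.75 in those of subclone 24. The groups did not overlap, with a difference of 3.05 or 8.30-fold, which was 2.07 with the mean over all probe sets of Lif, and the other 6 subclones had means of 7.88 to 8.62 between them. Il6 read 6.38, 6.28 and 6.19 against 4.69, 4.42 and 4.85, so subclone 24 was low and the 3.10-fold difference has no firm upper end. Il11 read 9.55, 9.59 and 9.62 against 7.26, 7.38 and 7.32, a 4.81-fold difference, and its mean in subclone 24 was the sixth of 8. In bulk RNA, fewer cells with a message and less message per cell cannot be told apart.

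Il33 read 12.57, 12.67 and 12.62 in subclone 28 and 7.45, 7.63 and 7.75 in subclone 24, a difference of 5.01 or 32.2-fold. Subclone 28 was the highest of all 8, but subclone 24 was only the sixth, since the lowest of the other means was 7.5. Bmp2 read 9.41, 9.50 and 9.41 against 4.69, 4.58 and 5.19, a difference of 4.62. Its groups did not overlap, subclone 28 was second of 8 and subclone 24 seventh, and all 3 arrays of subclone 24 were low. Tmem45a, a transmembrane protein gene, read 9.99, 10.10 and 10.11 against 4.98, 5.14 and 5.04, again a difference of 5.01. Here the pair formed both ends, with the other 6 means between 6.06 and 8.81.

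**Figure D1:**
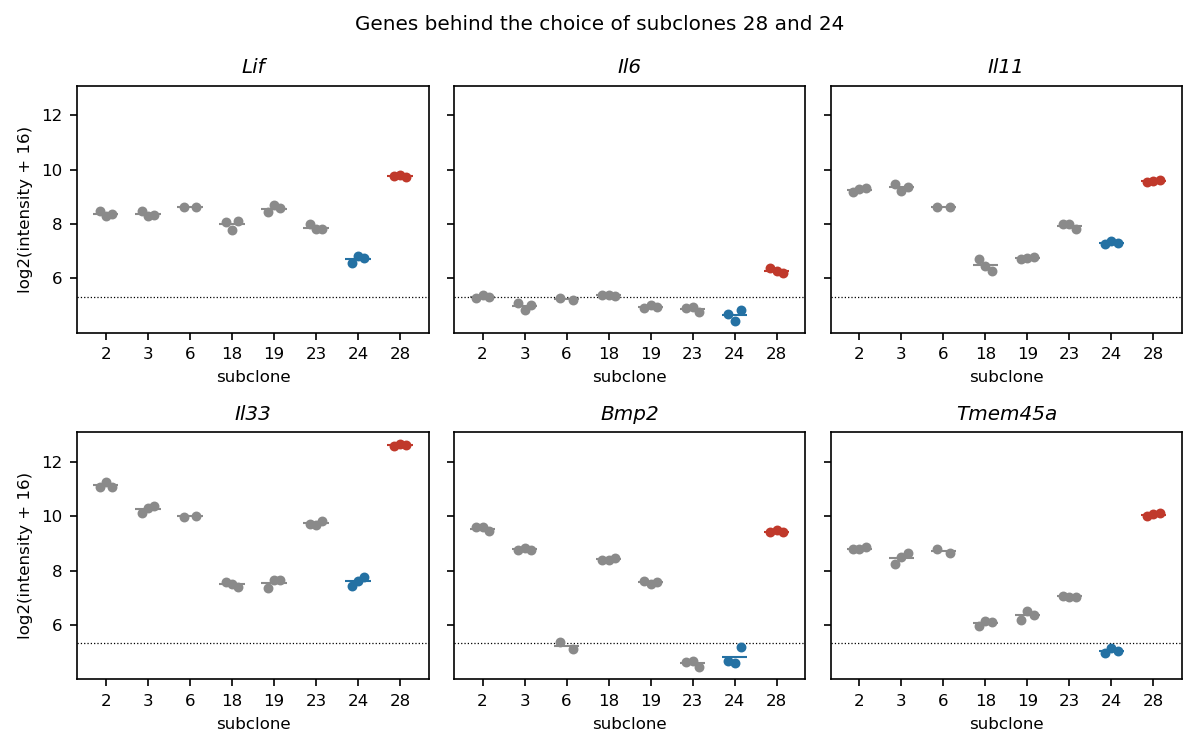
Level of Lif, Il6, Il11, Il33, Bmp2 and Tmem45a, in log2(intensity + 16), in each array of the 8 subclones (points) with the subclone mean (line). Subclone 28 is red, subclone 24 blue and the others grey, and the dotted line is the low level of 5.32. Subclone 28 is the highest in 5 of the 6 panels, while subclone 24 is the lowest for Lif, Il6 and Tmem45a and near other subclones for Il33, Il11 and Bmp2.

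The remaining large differences of the list were smaller or rested on dim values. Adm, the gene of the vasodilator adrenomedullin, read 11.70, 11.67 and 11.67 against 9.53, 9.64 and 9.83, a 4.04-fold difference between high levels. Slit2, a guidance ligand whose cleaved form acts on fat cells, had means of 6.84 and 4.72, Tslp 6.58 and 5.24, Tnfsf11 (RANKL) 5.59 and 4.33, and Hspa1a 6.13 and 4.94. In these 4 genes subclone 24 was low. Metrnl, which encodes a secreted protein of muscle and fat, had means of 8.0 and 6.95. Angptl4, an inhibitor of lipoprotein lipase, ran the other way with a difference of -0.92, and Inhbb, an activin subunit, stood at 0.89.

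Subclone 28 had the highest of the 8 means in 11 of the 44 factors and subclone 24 the lowest in 5. No share over all genes stands beside these ranks, so they are a description only. In the 14 factors that were low in both, a rank means little. Both ranks held for 4 of the 44, Lif, Il6, Metrnl and Adm. Of all 18193 genes, 462 had the highest mean in subclone 28 and the lowest in subclone 24, and 240 had the reverse. Several well-known wasting cytokines were low in both, namely Tnf, Il1a and Il1b, and so was the gp130 ligand Osm. Tnf had means of 4.25 and 4.61, with all 3 arrays of subclone 28 below those of subclone 24, and Il1a (-0.01), Il1b (-0.18) and Osm (-0.18) overlapped between the subclones.

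The receptor side of gp130 signalling did not follow its ligands. Il6st, which encodes gp130 itself, was 9.54, 9.60 and 9.63 in subclone 28 and 9.90, 9.91 and 9.92 in subclone 24, lower by a little (-0.32 ± 0.062 SE, adjusted p = 0.000373, limma). Il6ra, the interleukin-6 receptor, was lower in subclone 28 (-0.83 ± 0.086, adjusted p = 2.43e-07), and so was the oncostatin M receptor Osmr (-0.72 ± 0.064, adjusted p = 3.63e-08, the same sign in 2 of its 3 probe sets). Lifr was low in both, at 4.60 and 4.36, and its call depended on the setting. Stat3 read 9.54 and 9.58, with a difference of -0.03 ± 0.065 (adjusted p = 0.77). Socs3, the feedback inhibitor that STAT3 induces, differed by 0.21 ± 0.066 (adjusted p = 0.0148), and lost that call without replicate 3 of subclone 28 (adjusted p = 0.0816) or replicate 1 of subclone 24 (0.0766).

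Leaving out the ligands that chose the pair, 10 of 25 genes of gp130 signalling were higher and 7 lower, against 19.8% and 18.4% of all genes at the same bar, an adjusted p under 0.05 of any size. The median was 0.06. For the interleukin-1 family and NF-kB output the counts were 10 higher and 7 lower of 29. Il1rap, the accessory chain that interleukin-33 receptors also use, was 2.33-fold higher (1.22 ± 0.045, adjusted p = 2.18e-13, the same sign in 4 of 5 probe sets), and the decoy receptor Il1r2 was 2.36-fold higher. Ptgs2, cyclooxygenase 2, was 13.18, 13.29 and 13.27 against 11.56, 11.67 and 11.60 (1.63 ± 0.062, adjusted p = 3.16e-13). Ptges, the prostaglandin E synthase that acts after it, was 2.08-fold higher and the phospholipase Pla2g4a 1.95-fold. Of 27 genes of prostaglandin synthesis, 9 were higher (33.3%) and 2 lower (7.41%), against 19.8% and 18.4% of all genes. The lower count was 1 without replicate 3 of subclone 24 or with only the 6 arrays. It was 4 with the mean over all probe sets of a gene. Tnfaip3 (0.73) and Nfkbiz (0.60), both NF-kB targets, rose, while Icam1 fell by 0.70.

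Across the transcriptome, 378 genes (2.08%) were higher in subclone 28 and 136 (0.748%) lower, at an adjusted p under 0.05 and at least 1 log2 unit. These counts describe the whole table. Of the 378, 12 are Tmem45a and the cachexia-related factors past 1 log2 unit, whose values chose the pair, so their place there is no test of them, and 366 are other genes. Among the higher and the lower genes, 68 and 21 differed by over 4-fold, and 9 and 3 by over 16-fold. In all 514 the 3 arrays of one subclone lay beyond the 3 of the other, as they did in 49.8% of all genes. One side was low in 92 of the higher and 34 of the lower genes, for which the fold has no firm upper end. The root mean square distance between arrays was 0.179 to 0.189 within subclone 28, 0.191 to 0.204 within subclone 24, and 0.437 to 0.460 between them.

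The highest difference belonged to Zfp503, a zinc finger repressor gene, at 9.99, 10.08 and 10.00 against 4.38, 4.09 and 4.23 (5.79 ± 0.098, adjusted p = 6.37e-18). Xist, the noncoding RNA of X inactivation, followed at 11.18, 11.18 and 11.19 against 5.45, 5.68 and 5.27 (5.72 ± 0.14, adjusted p = 1.4e-15). Cd34, a sialomucin of stem and stromal cells, read 9.57, 9.69 and 9.53 against 4.52, 4.64 and 4.71, a 31.4-fold difference. In all 3 genes subclone 24 was low or close to it. The motor protein gene Myo1d was 21.6-fold higher, the acyl-CoA thioesterase gene Acot1 18.7-fold, the pluripotency gene Dppa4 18.2-fold and Dock4, a Rac activator, 13.8-fold. Acot1 has near-identical neighbours, so its probe set may also read these. Next came 3110039M20Rik (12.9-fold), Prxl2a (11.9-fold, with 2 of 3 probe sets of the same sign), Plac8 (10.9-fold), the glutathione transferase gene Gsta3 (10.9-fold) and the scaffold gene Iqgap2 (10.5-fold). From Myo1d on, subclone 24 was also low for all of these genes but Dock4 and Prxl2a. Folds of genes that were low in subclone 24 have no firm upper end.

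Several of the largest losses were genes of secreted or matrix proteins. Efemp1, the matrix glycoprotein fibulin-3, read 4.81, 4.77 and 4.50 in subclone 28 and 11.66, 11.81 and 11.68 in subclone 24, a 130-fold difference (-7.02 ± 0.11, adjusted p = 3.63e-18). Crabp1, which binds retinoic acid in the cytosol, read 5.58, 5.29 and 5.57 against 10.74, 10.74 and 10.79 (-5.28 ± 0.074, adjusted p = 6.01e-19). Cthrc1, a secreted protein with a collagen repeat, read 4.33, 4.28 and 4.93 against 9.57, 9.46 and 9.48 (-4.99 ± 0.13, adjusted p = 2e-15). Subclone 28 was thus at or near the low level for all 3, and subclone 24 was high. The secreted leucine-rich proteins Lrrc17 and Islr were lower by 3.41 and 2.48 log2 units, though only 1 of 2 probe sets of Lrrc17 had that sign. The serine protease gene Prss23 (-2.79), the fetal plasma protein gene Afp (-2.42, 4 of 5 probe sets), the membrane protein gene Ptchd1 (-2.82), Wtip (-2.81), 2900026A02Rik (-3.65, 1 of 2 probe sets), Arap2 (-2.45), Foxred2 (-2.40), Tspan8 (-2.37, 4 of 5 probe sets) and P2ry14 (-2.41) completed the list with the chemokine gene Cxcl2.

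**Figure D2:**
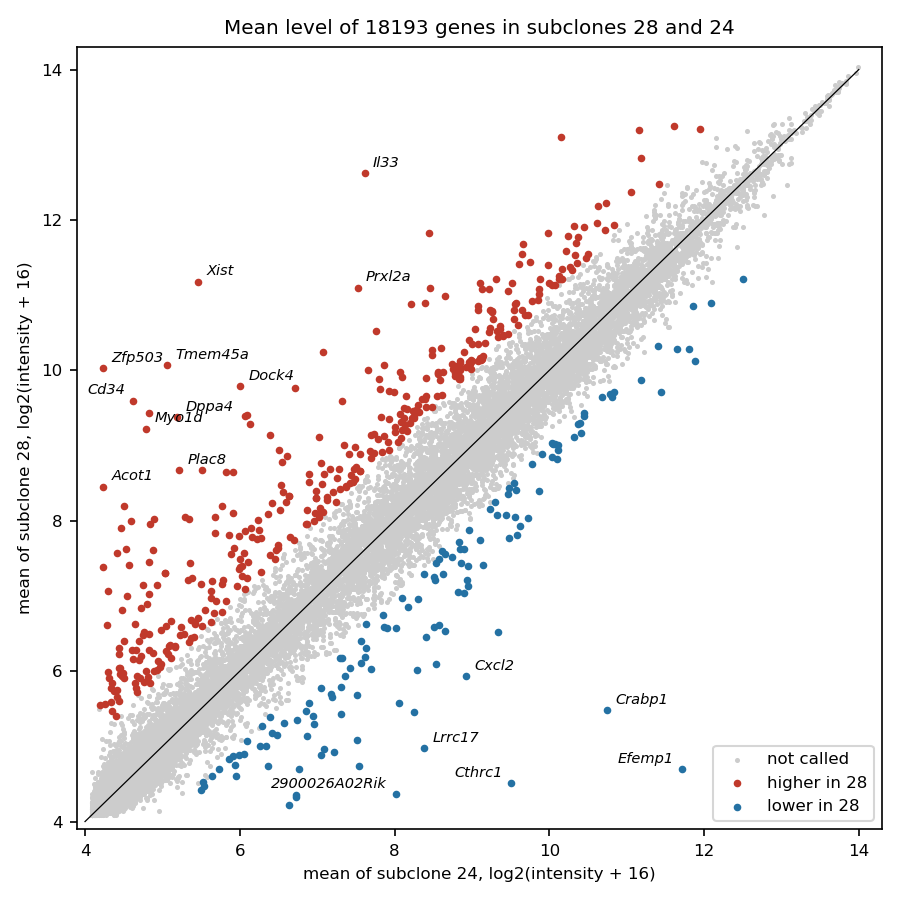
Mean level of each of 18193 genes in subclone 24 (x axis) and subclone 28 (y axis), both in log2(intensity + 16), over 3 arrays each. The 378 genes higher in subclone 28 are red, the 136 lower genes blue and the rest grey, and the line marks equal levels. Zfp503, Xist and Cd34 lie at the low end of the x axis, and Efemp1, Crabp1 and Cthrc1 at the low end of the y axis.

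The other 6 subclones show which side of the pair was unusual. Among the 378 higher genes, the mean of subclone 28 was above all other 6 by at least 1 log2 unit in 21, and that of subclone 24 below all by as much in 7, with 3 genes in both counts. Zfp503 (highest other mean 8.09), Acot1 (4.95), Plac8 (6.28), Myo1d (7.56), Tafa1 (5.99), Gpc4 (6.39) and Mogat2 (4.80) were high in subclone 28. Dock4 (lowest other mean 7.51), 3110039M20Rik (7.82), Tram1l1 (6.16), 2510009E07Rik (7.55) and Arhgap29 (9.05) were low in subclone 24, with Tmem45a and Lif. At any distance, subclone 28 was the highest in 224 of the 378 and subclone 24 the lowest in 181. Both held in 114 and neither in 87. All these counts include genes whose values chose the pair, so their place there is no test of them. At 1 log2 unit these are Lif and Tmem45a in both counts and Il33 in that of subclone 28.

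Of the 136 lower genes, subclone 28 lay below all others by at least 1 log2 unit in 8 and subclone 24 above all in 5, with 0 in both. The first set included 2900026A02Rik, Lrrc17, Foxred2, Arap2, the guidance ligand Sema3c (6.46 against 8.34 or more elsewhere), the calcium channel subunit Cacna2d1 and Tubb2b. The second held P2ry14, Itih5 (9.73 against 8.44 or less), Tesc, Zkscan16 and Ecpas. By contrast Xist, Cd34, Dppa4, Efemp1, Crabp1 and Cthrc1 had both members of the pair within the range of the other 6 means, except that subclone 28 was below it by 0.02 for Efemp1 and by 0.08 for Crabp1.

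The most uniform group was the hypoxia response with glycolysis, genes that HIF transcription factors switch on at low oxygen. Of 30 members, 27 were higher in subclone 28 (90.0%, against 19.8% of all genes) and 2 did not pass, with a median of 0.59. Kdm3a was lower, a call that was lost without replicate 3 of subclone 24. Ero1a, an oxidase of the endoplasmic reticulum, read 13.16, 13.21 and 13.21 against 11.04, 11.23 and 11.22 (2.03 ± 0.083, adjusted p = 1e-12). The collagen hydroxylase gene P4ha2 was 3.01-fold higher, the stress gene Ndrg1 2.75-fold, Ankrd37 2.29-fold, and Bnip3, a mitophagy receptor, 2.09-fold. The glucose transporter gene Slc2a1 (0.84) and the carbonic anhydrase gene Car9 (1.06) were also higher. Ldha (0.11) and Pgk1 (0.26), of the main glycolytic path, moved little, and Ldha lost its call in 5 of the alternatives. Adm and Vegfa, which belong to the same response, are left out of these counts because they were among the genes behind the choice of the pair. The mean level of the list was 10.76 in subclone 28 and 10.09 in subclone 24. Only subclone 18 was lower than subclone 24 (9.91), and the others had 10.41 to 10.71.

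Promoter windows of 250 bases before the gene start were read from RefSeq sequences of mouse build GRCm38.p6 and searched on both strands. The core of the HIF binding motif, ACGTG, was present for 18 of the 28 counted hypoxia list genes that had a window (64.3%), against 18.5% of 27025 genes and 16.6% of all 32851 windows. Such a list is partly defined by this motif, so the share is a description. The windows below belong to 4 of the higher genes and are shown, 5′ to 3′ in the direction of the gene, with each match or its reverse complement in capitals. The match starts 63 bases before the gene in Ero1a, 78 in P4ha2, 108 and 107 in Bnip3, where both strands match in overlap, and 241 and 6 in Ankrd37.
Ero1a, chr14:45318573-45318822, minus strand: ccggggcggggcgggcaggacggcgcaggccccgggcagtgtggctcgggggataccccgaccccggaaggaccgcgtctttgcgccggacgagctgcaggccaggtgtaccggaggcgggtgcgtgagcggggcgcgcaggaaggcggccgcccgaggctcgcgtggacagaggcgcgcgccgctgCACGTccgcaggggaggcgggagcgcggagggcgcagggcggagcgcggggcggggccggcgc
P4ha2, chr11:54100674-54100923, plus strand: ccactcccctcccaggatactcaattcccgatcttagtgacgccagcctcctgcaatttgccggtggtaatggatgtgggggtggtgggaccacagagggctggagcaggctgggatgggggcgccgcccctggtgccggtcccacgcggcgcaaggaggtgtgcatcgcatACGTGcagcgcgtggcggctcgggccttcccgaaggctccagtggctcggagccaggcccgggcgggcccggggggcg
Bnip3, chr7:138909507-138909756, minus strand: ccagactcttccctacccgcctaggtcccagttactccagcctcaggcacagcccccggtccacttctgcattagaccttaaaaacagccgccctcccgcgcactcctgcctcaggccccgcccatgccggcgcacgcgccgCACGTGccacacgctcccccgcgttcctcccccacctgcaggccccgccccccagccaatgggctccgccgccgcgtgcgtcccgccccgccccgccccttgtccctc
Ankrd37, chr8:45999851-46000100, minus strand: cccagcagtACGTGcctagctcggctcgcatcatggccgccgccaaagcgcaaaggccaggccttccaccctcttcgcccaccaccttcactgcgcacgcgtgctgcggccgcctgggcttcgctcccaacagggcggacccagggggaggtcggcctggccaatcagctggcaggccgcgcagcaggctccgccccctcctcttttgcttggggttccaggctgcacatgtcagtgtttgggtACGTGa

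The ERK pathway carries growth factor signals to immediate-early genes and to its own feedback phosphatases. Its output was higher in 23 of 29 genes (79.3%) and lower in 3 (10.3%), against 19.8% and 18.4% of all genes. The list median was 0.58. Hbegf, a ligand of the EGF receptor, read 11.19, 11.13 and 11.17 against 8.98, 9.19 and 9.15 (2.06 ± 0.084, adjusted p = 1e-12). Ereg, another such ligand, was 3.12-fold higher, the phosphatase gene Dusp5 3.17-fold, Ier3 3.12-fold, the transcription factor genes Egr1 and Fosl1 2.90- and 2.54-fold, and Dusp6 1.52-fold. Fos (-0.50), Ier2 (-0.25) and Spred1 (-0.24) were lower. Subclone 28 had the highest mean level of this list among the 8 subclones (10.01, against 9.27 to 9.69 in the other 6), and subclone 24 stood at 9.34.

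The EGF receptor gene itself was lower. Egfr read 6.69, 6.62 and 6.53 against 8.55, 8.52 and 8.66 (-1.97 ± 0.073, adjusted p = 2.49e-13), but only 4 of its 7 probe sets had that sign. Erbb2 differed by 0.09 ± 0.097 (adjusted p = 0.518). Betacellulin, Btc, a further ligand, was 2.11-fold higher. Among 44 genes of growth factors, 14 were higher (31.8%) and 8 lower (18.2%), against 19.8% and 18.4% of all genes. Among 46 of their receptors 11 were higher (23.9%) and 6 lower (13.0%). Ccn3 (9.0-fold) and Gas6, the ligand of the AXL receptor family (6.65-fold), led the higher growth factors. Angpt1, which binds the Tie2 receptor of blood vessels, was 4.16-fold lower, the neurotrophin gene Bdnf 2.25-fold and Artn 2.91-fold. Met (1.65-fold) and Pdgfra (2.35-fold) were higher among receptors, and Pdgfrb, low in subclone 28, was 1.93-fold lower.

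Of 49 measured genes around BMP, activin and TGF-beta, 12 are behind the choice of the pair and were left out. These include ligand genes such as Bmp2, Bmp4, Tgfb1, Inhba and Gdf11. Of the other 37, 11 were higher (29.7%) and 7 lower (18.9%), against 19.8% and 18.4% of all genes. Off 5 chromosomes shifted as a whole, described further on, 7 of 27 were in each direction. Among the 37 counted, the 4 with the largest differences were antagonists or their relatives. Follistatin, Fst, which traps activins, read 8.79, 8.77 and 8.80 against 6.28, 6.76 and 6.59 (2.24 ± 0.14, adjusted p = 2.76e-10). Gremlin, Grem1, which traps BMPs, was 3.62-fold higher, the follistatin relatives Fstl1 and Fstl3 3.71- and 2.87-fold, and the pseudoreceptor gene Bambi 1.78-fold. Fstl1 lies on chromosome 16, one of the shifted ones. Other inhibitors of the list did not pass, namely Nog (0.19), Chrd (0.12), Nbl1 (0.11), Sostdc1 (-0.15) and Smad6 (0.21), and Smad7 was slightly higher (0.27). Of the genes that BMP signals induce, Id1 differed by 0.04 ± 0.062 (adjusted p = 0.713) and Id3 by -0.66 ± 0.099 (adjusted p = 2.4e-05).

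Matrix metalloproteinases, which cut collagen and other matrix proteins, were a further group. Together with ADAM proteases and TIMP inhibitors, 19 of 39 were higher (48.7%, against 19.8% of all genes) and 3 lower, with a median of 0.23. Mmp3 (stromelysin 1) read 13.08, 13.10 and 13.12 in subclone 28 and 10.03, 10.22 and 10.20 in subclone 24 (2.95 ± 0.050, adjusted p = 6.37e-18). Mmp12 read 8.04, 8.09 and 8.03 against 5.16, 5.30 and 5.41, and Mmp10 8.09, 8.07 and 7.98 against 5.73, 5.66 and 5.67. The collagenase gene Mmp13 was 3.25-fold higher and Mmp1a, at dim levels, 1.79-fold. These 5 genes are neighbours in the cluster on chromosome 9, where Mmp7 (0.04) and Mmp8 (0.11) did not pass. Outside it, Adam8 was 6.70-fold and the gelatinase gene Mmp9 2.83-fold higher. Subclone 28 had the highest mean of the 8 for Mmp9, but not for Mmp3, Mmp12 or Mmp13, whose highest other means were 13.31, 10.47 and 11.22.

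The AP-1 motif TGANTCA, bound by Fos and Jun proteins, was present in the window of 8 of the 26 list genes that had one (30.8%), against 7.82% of all genes. They were Mmp1a, Mmp1b, Mmp3, Mmp7, Mmp10, Mmp12, Mmp13 and Adam19, so all but Adam19 lie in the chromosome 9 cluster, and Mmp7 holds it without a difference in level. None of 17 ERK list genes with a window held it. The windows of the 4 cluster genes with the largest differences are shown with the match in capitals, 46 bases before the start in Mmp3, 63 in Mmp10, 44 in Mmp12 and 35 in Mmp13. Mmp12 has a further window, which held no match.
Mmp3, chr9:7445572-7445821, plus strand: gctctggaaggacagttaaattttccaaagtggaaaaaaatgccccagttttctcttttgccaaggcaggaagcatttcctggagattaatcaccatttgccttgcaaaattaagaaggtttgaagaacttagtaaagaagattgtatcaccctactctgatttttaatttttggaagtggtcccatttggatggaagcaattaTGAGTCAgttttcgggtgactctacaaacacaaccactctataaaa
Mmp10, chr9:7502092-7502341, plus strand: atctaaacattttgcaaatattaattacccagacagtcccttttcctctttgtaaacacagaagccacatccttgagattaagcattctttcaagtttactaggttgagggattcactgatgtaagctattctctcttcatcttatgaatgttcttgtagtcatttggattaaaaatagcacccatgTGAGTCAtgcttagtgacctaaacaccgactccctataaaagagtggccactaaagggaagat
Mmp12, chr9:7347124-7347373, plus strand: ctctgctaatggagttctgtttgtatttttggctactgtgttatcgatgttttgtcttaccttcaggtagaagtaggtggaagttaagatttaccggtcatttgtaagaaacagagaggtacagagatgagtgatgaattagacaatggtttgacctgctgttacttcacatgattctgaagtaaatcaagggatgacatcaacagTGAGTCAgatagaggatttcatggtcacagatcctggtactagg
Mmp13, chr9:7272264-7272513, plus strand: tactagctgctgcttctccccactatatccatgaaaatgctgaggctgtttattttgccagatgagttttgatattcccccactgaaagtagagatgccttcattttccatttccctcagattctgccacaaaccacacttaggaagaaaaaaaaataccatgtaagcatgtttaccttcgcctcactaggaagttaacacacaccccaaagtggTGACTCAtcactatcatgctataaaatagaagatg

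Inhibitors of these enzymes differed among themselves. Timp1 was 1.45-fold higher, Timp2 differed by -0.02 ± 0.047 (adjusted p = 0.771), and Timp3, which stays bound to the matrix, was 3.57-fold lower, at 5.81, 5.58 and 5.66 against 7.53, 7.41 and 7.62. In the plasminogen system with serpins and cathepsins, 16 of 43 were higher (37.2%) and 4 lower (9.30%), against 19.8% and 18.4% of all genes. Urokinase, Plau, was 3.30-fold higher and its receptor gene Plaur 1.60-fold, while the tissue activator gene Plat was 1.5-fold lower. The protease inhibitors Slpi (3.86-fold) and Cst6 (2.89-fold) and the proteases Klk8 (3.38-fold) and Ctsh (2.21-fold) were higher as well. Heparanase, Hpse, which cleaves heparan sulphate, was 4.37-fold lower and low in subclone 28.

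NRF2 targets, the genes of antioxidant defence, were higher in 21 of 34 (61.8%) and lower in 4 (11.8%). Over all genes, 19.8% were higher and 18.4% lower. The list median was 0.28. Gsta3 led (3.45 ± 0.15, adjusted p = 2.96e-12), followed by Cbr3 (5.06-fold), the cystine transporter gene Slc7a11 (3.45-fold) and Abcc1, which exports glutathione conjugates (2.48-fold). Gclm, of glutathione synthesis, was 2.32-fold and Srxn1 2.10-fold higher, and Nqo1 1.63-fold. Gclc, which forms 1 enzyme with Gclm, was lower (-0.31), and Hmox1 differed by 0.52 ± 0.21 (adjusted p = 0.056). The motif TGACNNNGC was present for 6 of 28 list genes (21.4%), against 11.5% of all genes. Exactly 17 of the 34 lie on chromosomes whose genes were shifted as a whole between the subclones. Off these chromosomes 8 of 17 were higher and 3 lower, against 17.7% and 18.3% of all genes there. The mean level of the whole list was 10.30 in subclone 28, close to subclone 3 (10.28), and 9.74 in subclone 24.

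**Figure D3:**
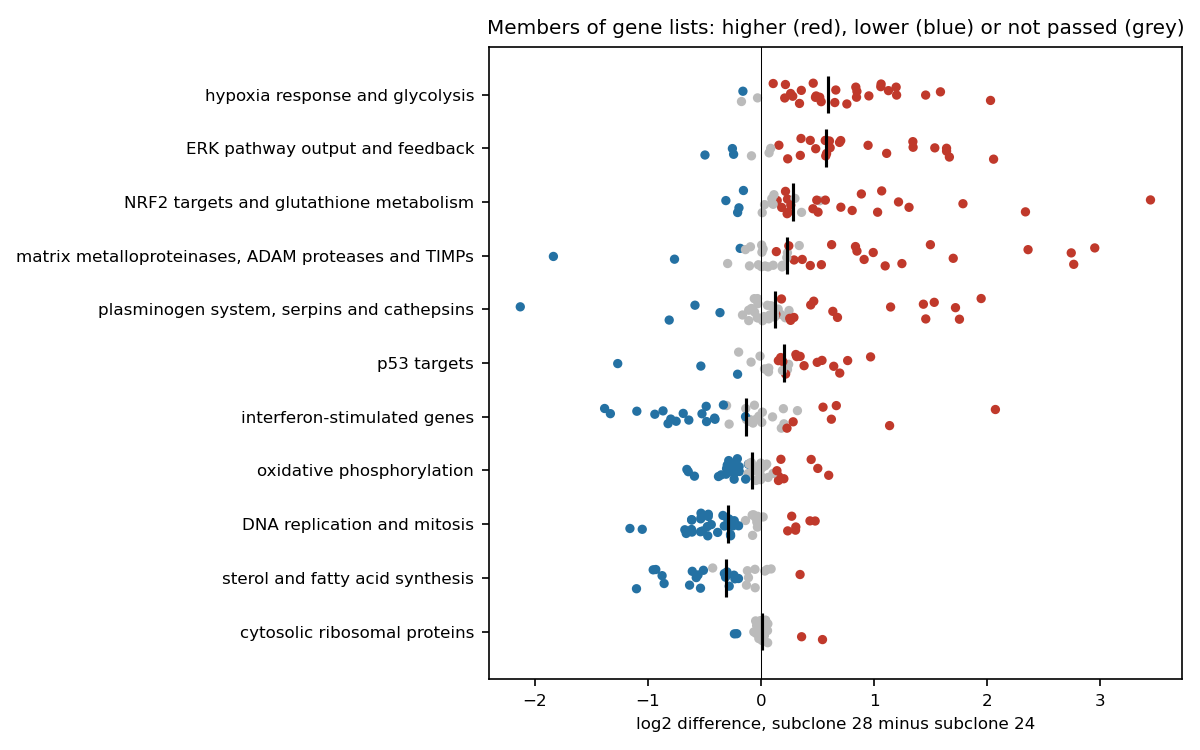
Log2 difference (subclone 28 minus subclone 24) of each member of 11 gene lists. Points are genes, red where higher and blue where lower at an adjusted p under 0.05 and grey otherwise, with vertical scatter added for visibility, and the black bar is the list median. Medians run from 0.59 for the hypoxia response to -0.31 for sterol and fatty acid synthesis.

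Genes of DNA replication and mitosis ran the other way, with 28 of 43 lower in subclone 28 and 6 higher, and a median of -0.29. Mcm5, of the replicative helicase, read 9.67, 9.59 and 9.70 against 10.80, 10.83 and 10.81 (-1.16 ± 0.053, adjusted p = 4.18e-12). Ccne2, a cyclin of S-phase entry, was 2.07-fold lower, the nucleotide synthesis genes Rrm2 and Tk1 1.59- and 1.58-fold, and Mki67 1.53-fold. Differences in most of the others were small, such as Top2a (-0.27) and Ccna2 (-0.24). E2f1 (0.48), Cdk1 (0.43) and Ccne1 (0.27) were higher. The mean level of the list was 9.78 in subclone 28 and 10.07 in subclone 24, and only subclone 2 was below subclone 28 (9.31). Among 26 p53 targets, which include brakes of the cell cycle, 14 were higher (53.8%) and 3 lower (11.5%). Mdm2 (0.97), Plk3 (0.77), Gadd45a (0.70) and Cdkn1a (0.64) were higher and the death receptor gene Fas was lower (-1.27).

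Sterol and fatty acid synthesis was lower in 18 of 28 genes (64.3%) and higher in 1 (Lss, 3.57%). Over all genes, 18.4% were lower and 19.8% higher. The list median was -0.31. Idi1 read 9.70, 9.65 and 9.72 against 10.82, 10.75 and 10.80 (-1.10 ± 0.058, adjusted p = 3.53e-11). Nsdhl (-0.95), Cyp51 (-0.93), Tm7sf2 (-0.87), Msmo1 (-0.86) and Hmgcs1 (-0.56), all of cholesterol synthesis, were lower too. The fatty acid genes Fasn (-0.13) and Scd1 (-0.05) did not pass. Subclone 28 had the lowest mean of the list (9.45), close to subclones 19 (9.46) and 23 (9.51). Subclone 24, at 9.82, was not high among the 8, since subclone 3 reached 10.17. The motif TCACNCCAC was present in the windows of 1 of 22 list genes, Hmgcs1, against 1.23% of all genes.

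**Figure D4:**
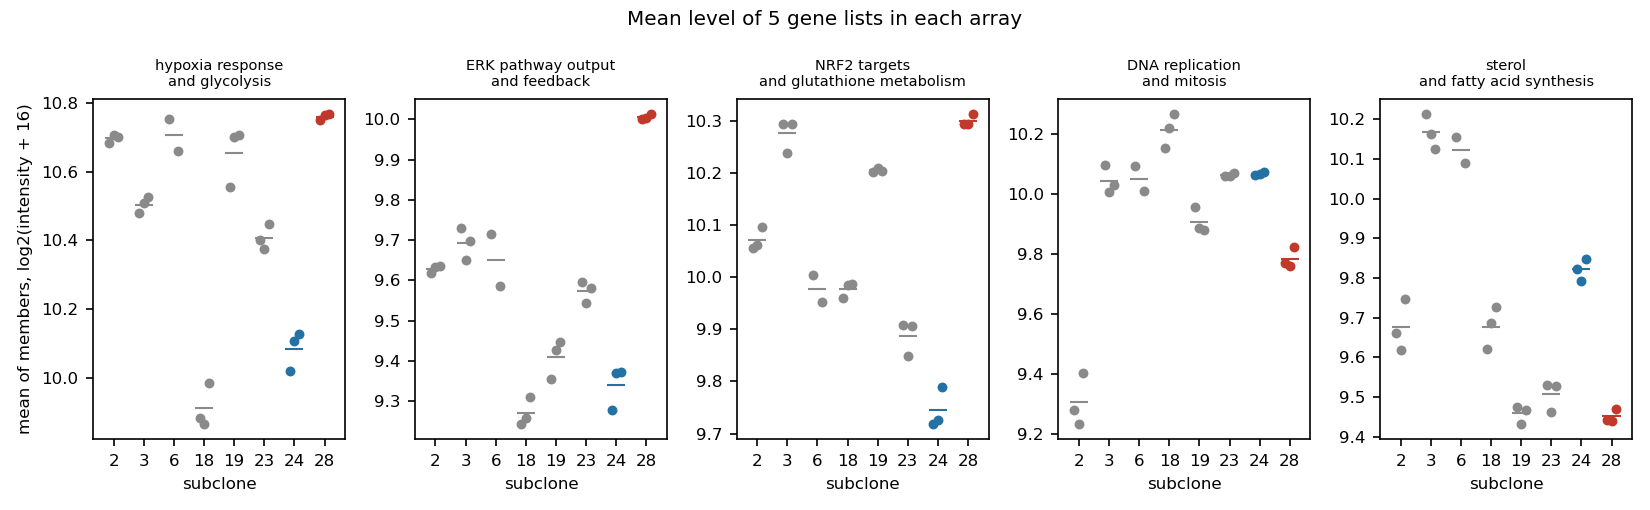
Mean log2(intensity + 16) over the members of 5 gene lists in each array (points) of the 8 subclones, with subclone means (lines), subclone 28 in red and subclone 24 in blue. The vertical axes differ and do not start at 0. Subclone 28 has the highest mean for the hypoxia, ERK and NRF2 lists and the lowest for sterol synthesis. Its arrays overlap those of subclone 6 for hypoxia, subclone 3 for NRF2, and subclones 19 and 23 for sterol synthesis. Subclone 24 has the lowest mean only for the NRF2 list.

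Chemokine genes differed among themselves. Cxcl2, a neutrophil attractant, read 6.01, 5.79 and 6.0 against 8.94, 8.93 and 8.91 (-2.99 ± 0.056, adjusted p = 2.17e-17). Its relatives Cxcl5 (-1.29) and Cxcl3 (-0.99) were also lower, whereas Cxcl1, of the same cluster on chromosome 5, was higher (0.63). The monocyte attractants Ccl7 (1.38) and Ccl2 (0.40) were higher, and the T-cell attractants Ccl5 (-1.51) and Cxcl10 (-1.33) lower. In all, 3 of 34 were higher (8.82%) and 8 lower (23.5%), against 19.8% and 18.4% of all genes. The higher count depended on the setting. It was 5 without replicate 3 of subclone 24 or with the filter on level. With only the 6 arrays, or with the mean over all probe sets of a gene, it was 6. Of 21 other cytokines and colony-stimulating factors 8 were higher and 2 lower, with Ltb (2.06-fold) and Tnfsf9 (1.75-fold) among the former.

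Interferon-stimulated genes were lower in 17 of 41 (41.5%, against 18.4% of all genes) and higher in 7. Irf1, a transcription factor of the interferon-gamma response, was 2.14-fold lower, Parp14 2.61-fold (1 of 2 probe sets), and the resistance GTPases Igtp and Irgm1 1.82- and 1.77-fold. Trim30a (4.21-fold) and Isg20 (2.20-fold) were higher, so the list did not move as a block. For MHC class I presentation 7 of 18 were lower and 5 higher, or 3 higher without replicate 1 of subclone 24. The peptide trimming gene Erap1 read 6.74, 6.53 and 6.31 against 8.63, 8.65 and 8.67, and the immunoproteasome gene Psmb10 was 3.41-fold lower, but Nlrc5, an activator of these genes, was 1.98-fold higher. The checkpoint ligand gene Cd274 differed by 0.06 ± 0.14 (adjusted p = 0.81). Oxidative phosphorylation was lower in 20 of 48 and higher in 8, with a median of only -0.08. Cytosolic ribosomal protein genes were flat, with 2 of 32 in each direction and a median of 0.01.

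Guidance and patterning lists held a few large changes, and are set beside the 19.8% higher and 18.4% lower of all genes. Of 54 axon guidance genes 15 were higher (27.8%) and 8 lower (14.8%). Sema7a was 3.23-fold and the netrin receptor gene Unc5b 2.12-fold higher, and Sema3c 3.85-fold lower. Of 62 genes of Wnt, Notch and Hedgehog signalling 15 were higher (24.2%) and 9 lower (14.5%). Notch1 was 3.51-fold lower and Fzd6 2.40-fold (2 of 3 probe sets), while the Notch ligand gene Dll1 was 3.10-fold and the Wnt inhibitor gene Dkk2 2.53-fold higher. For TGF-beta and YAP targets the shares were larger, with 11 of 27 higher (40.7%) and 6 lower (22.2%). Ltbp2 (1.63), Skil (0.77) and Tgif1 (0.73) were at the upper end and Tgfbi (-1.72) at the lower.

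Matrix lists are likewise set beside the 19.8% and 18.4% of all genes. Of 35 collagen chains 8 were higher (22.9%) and 4 lower (11.4%), and off the shifted chromosomes 4 and 2 of 26, with Col8a1 3.02-fold higher and Col4a5, a basement membrane chain, 2.02-fold lower. Of 67 matrix glycoproteins and proteoglycans 16 were higher (23.9%) and 11 lower (16.4%), including Ltbp2 (3.09-fold higher) and Tgfbi (3.30-fold lower) besides Efemp1 and Cthrc1. Of 39 integrins and cadherins 11 were higher (28.2%) and 6 lower (15.4%), with Itga7 2.95-fold higher and Itgb2 and Cdh13 2.80- and 2.49-fold lower. Among lipid uptake and export genes (9 higher and 7 lower of 34), the scavenger receptor gene Cd36 was 2.81-fold and the lipid droplet gene Hilpda 2.29-fold higher, and Scara5 2.37-fold lower in 1 of 2 probe sets. Retinoid genes (2 higher and 3 lower of 23, and 1 higher without any single array of the pair other than replicate 3 of subclone 28) included Rdh10, which makes retinal, at 2.49-fold lower besides Crabp1. Acute-phase and defence proteins were higher in 9 of 30 and lower in 3, with Ptx3 2.12-fold and Lyz1 2.61-fold higher (2 of 3 probe sets; a near-identical gene, Lyz2, may be read as well). Of 40 genes of ER stress and the amino acid response, 14 were higher and 10 lower, with Trib3 2.03-fold higher and Atf5 3.28-fold lower. Among 10 insulin-like growth factor binding protein genes, 2 were higher and 3 lower, each by under 0.5 log2 units, and 1 was higher without replicate 3 of subclone 28 or replicate 1 or 3 of subclone 24.

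Markers of cell identity did not move one way. Vim, the mesenchymal filament gene, stood at 13.83 and 13.74, and the epithelial cadherin gene Cdh1 was low in both, at 4.38 and 4.34. Epcam, another epithelial gene, was above the low level in both, at 7.67 and 7.35. Of 25 mesenchymal genes 9 were higher and 7 lower, against 19.8% and 18.4% of all genes, with Myl9, a myosin light chain gene, lower (-1.26). Of 33 epithelial genes 21 were low in both, 4 were higher (12.1%) and 3 lower (9.09%). The higher count was 2 without replicate 1 of subclone 28 or replicate 2 or 3 of subclone 24. Elf3 (0.78) was among the higher and the tight junction gene Ocln (-0.97) among the lower.

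Lung epithelial genes, of the tissue the line is named after, were partly low. The lineage factor gene Nkx2-1 was low, at 4.38 and 4.43, and the surfactant gene Sftpc stood at 5.47 and 5.05. Others were well above the low level in both subclones, such as Hopx (10.55 and 9.04), Etv5 (10.35 and 9.0) and Foxa2 (8.47 and 8.91). Of 21 such genes 11 were low in both, 4 were higher and 1 lower, and 2 were higher without replicate 1 or 3 of subclone 28 or replicate 1 or 2 of subclone 24. The summed intensity of the 21 was 3783 to 3839 in subclone 28 and 2079 to 2243 in subclone 24, which held the highest and the lowest array of the 23, respectively. Hopx and Etv5, which lies on chromosome 16, were the members past 1 log2 unit.

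Markers of other cell types were examined in the same way. The leukocyte marker Ptprc (4.64 and 4.42) and the endothelial marker Pecam1 (4.81 and 4.70) were low. The summed intensity of 29 leukocyte markers was 1653 to 1708 in subclone 28 and 1181 to 1236 in subclone 24. The list had 19 members low in both, and only Cd68 (2.44) and Lyz2 (0.86) passed the test. Of 22 endothelial, fibroblast and adipocyte markers 3 were higher (13.6%) and 4 lower (18.2%), against 19.8% and 18.4% of all genes. The fatty acid binding protein gene Fabp4 was 8.85-fold, Pdgfra 2.35-fold and decorin, Dcn, 2.13-fold higher, dermatopontin, Dpt, was 2.84-fold lower, and the adipocyte hormone gene Adipoq was low in both.

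Besides Xist, X-linked genes gave no common direction. Of 13 genes of X inactivation and escape from it, 5 were higher (38.5%) and 3 lower (23.1%), against 19.8% and 18.4% of all genes. Kdm6a (1.41-fold) and Kdm5c (1.35-fold, 6 of 9 probe sets), which are known to escape inactivation, were higher, while Ftx, an RNA of the inactivation centre, was 1.78-fold lower. The median over 365 expressed genes of the X chromosome was 0.02. Of 26 pluripotency, oncofetal and imprinted genes 2 were higher (7.69%) and 4 lower (15.4%). The lower count was 2 without replicate 1 of subclone 28 or replicate 2 of subclone 24. Ndn, an imprinted gene, was 4.43-fold higher (7 of 8 probe sets) and Peg3 2.09-fold lower (4 of 5).

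Whole chromosomes were shifted between the subclones. The median difference over genes with a mean of at least 5.32 was 0.36 on chromosome 16, 0.34 on chromosome 10 and 0.17 on chromosome 3, and it was -0.22 on chromosome 8 and -0.21 on chromosome 13. The other 15 chromosomes had medians between -0.05 and 0.03. On chromosome 16, 67.4% of expressed genes were higher in subclone 28 at an adjusted p under 0.05, and 62.4% on chromosome 10. On chromosomes 8 and 13, 54.0% were lower on each. The shift of chromosome 16 was even, at 0.39, 0.36, 0.35 and 0.33 in 4 equal parts by gene order. That of chromosome 10 was graded, at 0.57, 0.42, 0.25 and 0.17.

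Both members of the pair contributed. Against the mean of the other 6 subclones, chromosome 16 stood at 0.16 in subclone 28 and at -0.21 in subclone 24, and chromosome 10 at 0.10 and -0.23. Chromosome 8 was shifted mostly in subclone 28 (-0.26, against -0.04 in subclone 24), and chromosome 13 stood at -0.15 and 0.07. These comparisons share the arrays of the other 6 subclones.

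**Figure D5:**
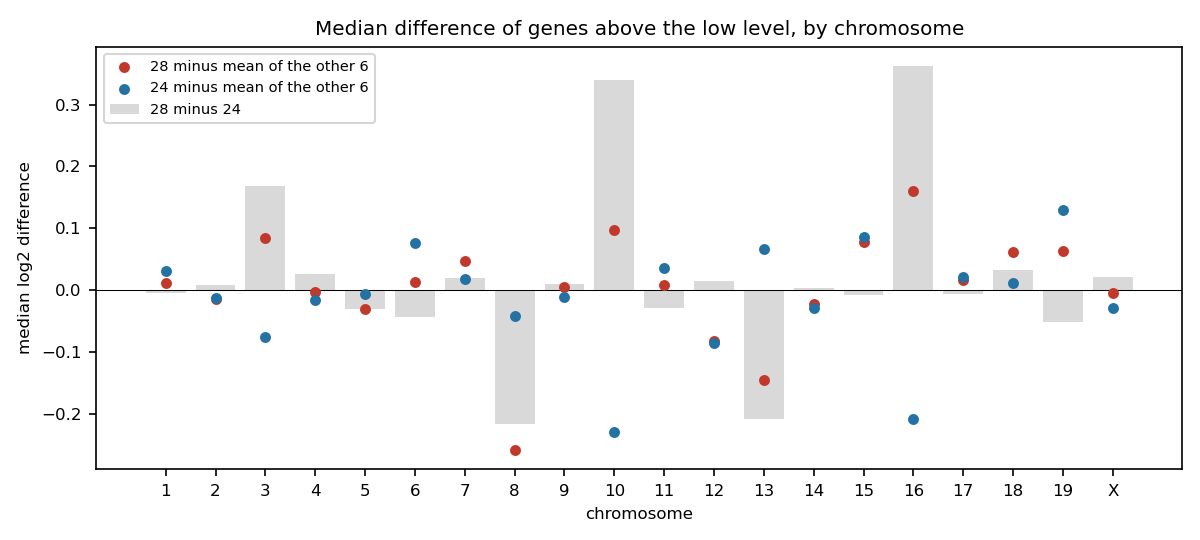
Median log2 difference per chromosome over genes with a mean of at least 5.32, for subclone 28 minus subclone 24 (grey bars) and for each of them minus the mean of the other 6 subclones (points, red for 28 and blue for 24). Chromosomes 16, 10 and 3 stand above 0 and chromosomes 8 and 13 below it, and the other 15 grey bars lie between -0.05 and 0.03.

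Of the 378 higher genes, 103 lie on chromosomes 3, 10 and 16, and of the 136 lower genes 31 lie on chromosomes 8 and 13. Tmem45a, Dppa4, Fstl1, Cbr3, Abcc1, Il1rap and Col8a1 are on chromosome 16, Fabp4, Slc7a11, Gclm and Dkk2 on chromosome 3, and Idi1, Erap1 and Tgfbi on chromosome 13. Others run against their chromosome, such as Timp3 on chromosome 10, Fst on chromosome 13 and Gas6 on chromosome 8. Lif and Il33 lie on chromosomes 11 and 19, which were not shifted. The part of these shifts in single genes was not tested. Off the 5 chromosomes, the counts were 20 higher and 1 lower of 23 for the hypoxia response, 18 and 2 of 21 for ERK output, 16 and 2 of 31 for metalloproteinases, 5 and 26 of 37 for replication and mitosis, and 0 and 13 of 20 for sterol synthesis. Among other lists, leaving these chromosomes out lowered several counts of higher genes, but these lists also lost members. Oxidative phosphorylation went from 8 of 48 higher (16.7%) to 3 of 35 (8.57%). Growth factors went from 14 of 44 (31.8%) to 8 of 33 (24.2%). ER stress and the amino acid response went from 14 of 40 (35%) to 8 of 28 (28.6%). The share moved less for axon guidance, from 15 of 54 (27.8%) to 9 of 36 (25%). It also moved little for other cytokines, from 8 of 21 (38.1%) to 4 of 11 (36.4%). Over all genes it went from 19.8% to 17.7%.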

How the data were processed

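Total RNA of 8 LLC subclones was measured on 23 arrays. The authors deposited 1 linear intensity per probe set and array, and how they made these intensities is not given in the sources used here. Array medians of the 6 arrays lay between 41.63 and 43.26. For arrays, their number limits the precision.

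Control probe sets (64) were left out, and 34945 probe sets had 1 symbol in the platform annotation, updated through RefSeq (GRCm38.p6), which also gave chromosomes, gene order and promoter windows. Each of 18193 genes is represented by the probe set with the highest mean of log2(intensity + 16) over the 23 arrays. limma 3.58.1 in R 4.3.3 (lmFit, eBayes, 15 residual degrees of freedom) fitted a mean per subclone to all 23 arrays, with Benjamini-Hochberg adjustment. On simulated data of this size, 49 of 50 genes changed by 1 log2 unit and 31 of 50 changed by 0.5 were recovered. Recovery meant an adjusted p under 0.05 in the right direction, with no minimum difference. It therefore does not give the sensitivity of the counts that also require 1 log2 unit. The simulation also changed only 50 genes of each size, while 3604 higher and 3352 lower genes passed an adjusted p under 0.05 in the data. With so different a share of changed genes, the recovery does not give the sensitivity in these data.

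The members and all 39 lists were chosen with earlier results of these data known. Genes behind the choice of the pair are left out of the counts of other lists. The text names the pair's markers and receptors, cachexia factors past 1 log2 unit, the 15 largest called differences each way, up to 4 members per list, and up to 8 genes per direction that lay beyond the other subclones. Another 64 genes, and members given only by a difference, were named after their values were seen. Replicate numbers did not pair the arrays, since deviations of same-numbered arrays correlated at 0.05, 0.02 and -0.03. Alternatives changed the pseudocount, filter, scaling, arrays, variance prior, probe set rule and replicate block.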

Additional observations from a re-analysis of the deposited data

How the results depend on the processing

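The numbers of genes higher and lower in subclone 28 kept within 1.5 times of 378 and 136 in all alternatives except the pseudocount. A pseudocount of 1 gave 590 and 247 genes, and one of 64 gave 239 and 76. Leaving out each array of the pair in turn gave 362 to 398 higher and 132 to 142 lower genes. With the replicate block, the counts were 378 and 136, no placement moved by over 1.5 times, and 4 leukocyte markers and 1 retinoid gene were higher. Hmox1 passed under it (adjusted p = 0.047, limma). The genes beyond the other subclones depended on the pseudocount too. With 1, subclone 28 was above the others in 33 genes and subclone 24 below in 22 and above in 8. With 64, these were 11, 3 and 3, and subclone 28 was below in 3. The mean over all probe sets of a gene gave 3 genes with subclone 24 below and 5 with subclone 28 below. Without the 5 shifted chromosomes, an alternative chosen after seeing the data, 253 genes were higher and 98 lower, and subclone 24 was below in 3. Leaving out arrays in turn, subclone 28 was above in 21 to 23 and below in 8 to 9, and subclone 24 below in 6 to 8 and above in 5 to 7. The 11 cachexia-related factors past 1 log2 unit were 6 with a pseudocount of 64 and 10 to 13 on leaving out arrays, and with a pseudocount of 1 there was 1 factor lower by that much. Of the list counts over all alternatives, 1155 stayed within 1.5 times and 61 moved further. Of these 61, 18 were without the 5 chromosomes, where many lists also have fewer members. Another 8 were with the mean over all probe sets, and up to 6 on leaving out 1 array (replicate 3 of subclone 24). Among single genes, Lifr turned to -0.045 and Zeb1 to -0.050 with the mean over all probe sets, and the others kept their direction under every alternative run if they had passed the test. Of the gene results, 3819 kept their side of the threshold or stayed within the spread between arrays, 40 lost and 9 gained the call, and 25 moved, all of them genes behind the choice of the pair. Lif was 2.07, Slit2 0.77 and Metrnl 0.41 with the mean over all probe sets. Signal near the low level limits the size of any fold from a dim gene, and the causes of these changes were not tested.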

Other observations

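Probe sets without a single gene symbol in the annotation held further differences. Of 10092 such probe sets, 74 were higher and 28 lower in subclone 28 by the same thresholds in limma, in a fit over all probe sets.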
